A study of Mus musculus with 10 samples.

Results

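The translation initiation factor genes were compared between the mouse melanoma line WT31 and its hepatic-passaged subline WT31_P5IV. Members were taken by name: the protein-coding genes on autosomes or the X chromosome whose GENCODE M21 symbol begins with Eif1 to Eif6, without the eIF2 kinases of the Eif2ak series. This gave 50 of the 55385 gene identifiers measured. The family was taken up because an earlier analysis of these same libraries had found its median change to be lower in WT31_P5IV, so the direction of the family as a whole was selected on these values and is given as a description, with no test.

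WT31 was derived from a melanoma of a Tyr::NrasQ61K/°; INK4a−/− mouse, in which the tyrosinase promoter drives mutant Nras in pigment cells. WT31_P5IV was made from WT31 by 5 cycles of intravenous injection into female C57Bl/6 mice, recovery of liver metastases and expansion in culture, so both groups carry the same transgene and deletion. Bulk RNA came from untreated, sub-confluent cells grown in RPMI medium with fetal calf serum, not from tumors, and each group is represented by 1 cell line. There were 5 libraries per group, which the labels call biological replicates without naming separate animals or sublines, so p-values measure the spread between these libraries only.

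Initiation begins when eIF2 brings the initiator tRNA to the small ribosomal subunit, together with eIF1, eIF1A, eIF3 and eIF5. The eIF4F complex, made of the cap-binding protein eIF4E, the scaffold eIF4G and the RNA helicase eIF4A, binds the capped end of the mRNA and recruits this subunit, which then scans for a start codon. eIF5B joins the large subunit, and eIF2B reloads eIF2 with GTP for the next round. In tumor cells, including melanoma, signaling through mTOR acts on eIF4E by way of its binding proteins, and stress kinases act on eIF2.

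The libraries held 24255389 to 25750639 estimated counts, and 3 counts corresponded to 0.114 to 0.129 CPM, the counts scaled to a common library total. Melanocyte markers were detected for 7 of 7 genes, with a summed level of 17050 to 18440 CPM in WT31 and 22230 to 25730 CPM in WT31_P5IV. Hepatocyte markers summed to 0.227 to 0.554 CPM in WT31 and 0.442 to 1.18 CPM in WT31_P5IV, with Serpina1a and Apob at or under 3 counts. Macrophage and leukocyte markers summed to 0.757 to 2.18 CPM and 3.38 to 5.00 CPM, with Ptprc, Adgre1 and Clec4f at or under 3 counts. Stellate cell and fibroblast markers, 5 of 5 above 3 counts, summed to 1.77 to 2.51 CPM in WT31 and 2.78 to 3.53 CPM in WT31_P5IV, and endothelial markers to 0.119 to 0.416 CPM and 0.161 to 0.421 CPM, with Cdh5, Kdr and Emcn at or under 3 counts. In bulk RNA, fewer cells expressing a gene and less RNA per cell cannot be told apart. All 37 mitochondrial genes together took 147800 ± 9123 TPM (transcripts scaled by length to a common total) in WT31 and 244600 ± 14790 TPM in WT31_P5IV (SD, n = 5), and since TPM values share a fixed total, this moves with the TPM of every other gene. Its part in the members' values was not tested.

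Most initiation factor genes were modestly lower in WT31_P5IV. Of the 50 members, 48 had enough counts to be tested. With edgeR's quasi-likelihood test on counts, 34 were lower at an adjusted p under 0.05, 4 were higher and 10 did not pass the test. Among all 13620 genes tested, 33.9% were lower and 34.6% were higher by the same rule. The median log2 fold change was −0.23 over the members and 0.01 over all genes tested, with a range from −0.63 to 0.29 among the members. No library of WT31_P5IV overlapped with any of WT31 for 28 members that were lower and 3 that were higher, where 27.5% and 26.6% of all genes tested did so. No member reached an absolute log2 fold change of 1, which 9.10% of all genes tested did at an adjusted p under 0.05. On log2(TPM + 0.1) the median of all genes moved from 0.01 to −0.14. The 4 members called higher moved down with it, Eif1b, Eif2d and Eif4a3 to between −0.01 and 0.00 and Eif6 to 0.13. Eif2b2 and Eif3i, above 0 in the count test without passing, passed as lower there at −0.14 and −0.11, and Eif3k and Eif4ebp1 turned to −0.09 and −0.06 without passing. Set against the median of all genes, the 4 members called higher lay above it by 0.12, 0.14, 0.14 and 0.27 on that scale and by 0.13, 0.10, 0.15 and 0.28 in the count test. The median level was 148 CPM over the members tested and 26.4 CPM over all genes tested, and genes of like level were not compared. Since the family was selected on this contrast, nothing is read from its shares beside those of all genes.

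**Figure D1:**
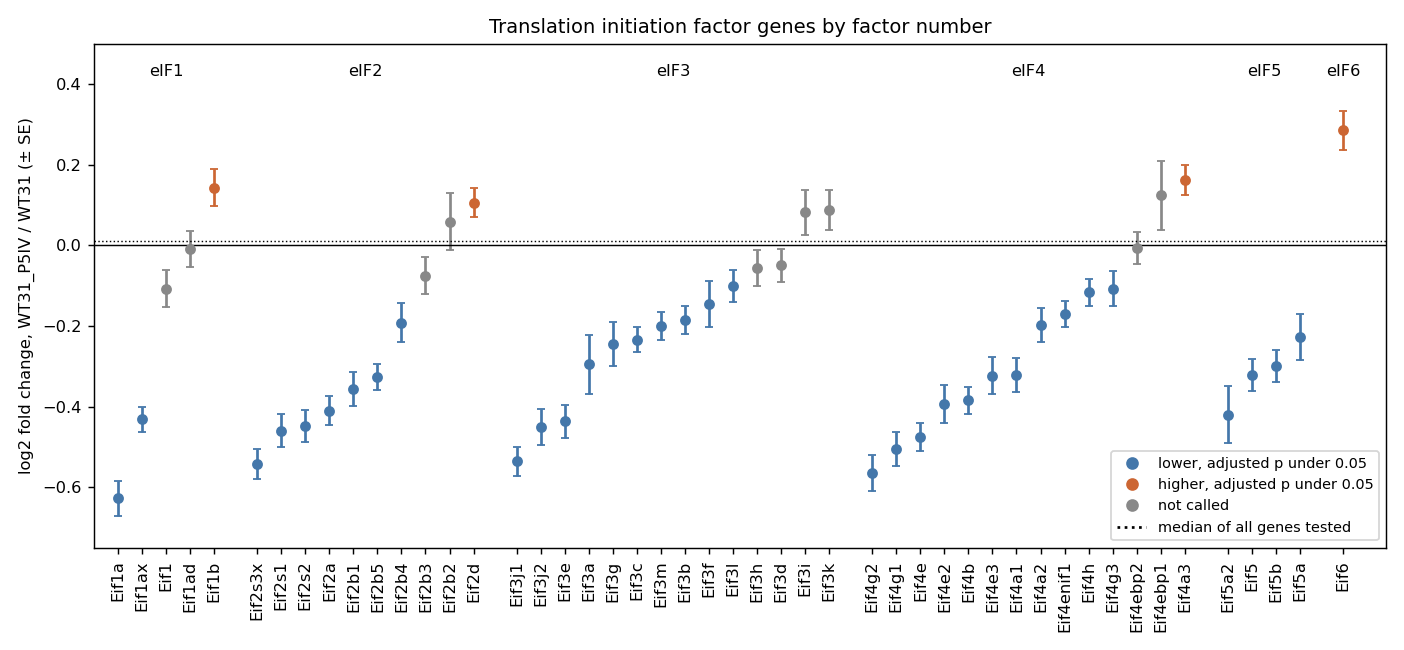
Log2 fold change of WT31_P5IV against WT31 with its standard error for the 48 members tested, ordered within each factor number. 34 members lie below zero and are called lower, and the 4 called higher are Eif1b, Eif2d, Eif4a3 and Eif6, the highest at 0.29, of which the first 3 lie at or just below 0 on log2(TPM + 0.1), where the median of all genes is −0.14.

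Levels per transcript length, in TPM, differed widely between the members. Eif5a was the highest in WT31 at 1385 ± 87.2 TPM (SD, n = 5), followed by the helicase gene Eif4a1 at 923 ± 14.9 TPM, Eif4g2 at 660 ± 56.2 TPM and Eif1 at 474 ± 10.4 TPM. These 4 means lay further apart than their SDs. At the low end of the genes tested were Eif5a2 with 8.44 ± 0.971 TPM and Eif4e3 with 21.8 ± 1.41 TPM. The TPM of all 50 members summed to 9166 ± 70.9 in WT31 and 6985 ± 226 in WT31_P5IV. Among the complexes, the eIF2 trimer summed to 408 ± 19.6 and 259 ± 13.4 TPM, the eIF4G genes to 1039 ± 90.2 and 702 ± 27.8 TPM, and eIF3 to 2717 ± 32.9 and 2196 ± 76.2 TPM. The eIF4E-binding proteins summed to 106 ± 2.30 and 97.3 ± 3.18 TPM, and Eif6 held 79.6 ± 5.30 and 86.9 ± 3.91 TPM.

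**Figure D2:**
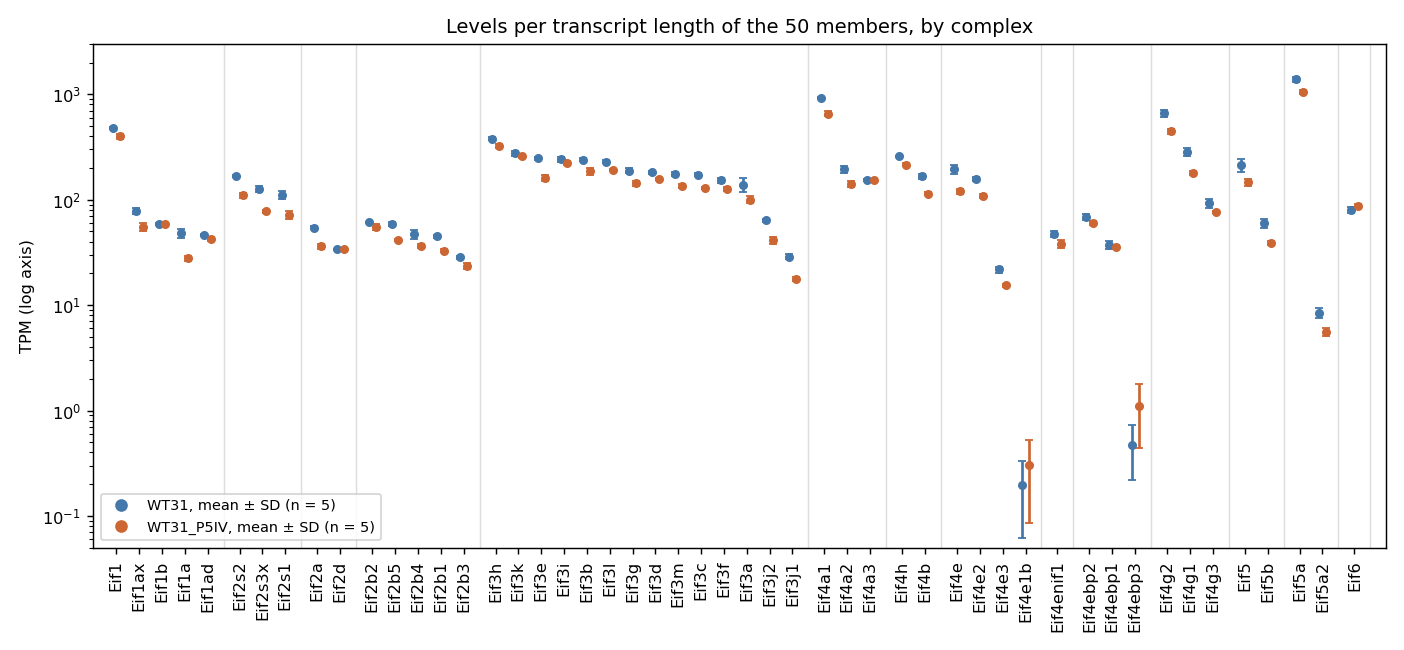
Mean TPM with SD of the 50 members in WT31 and WT31_P5IV (n = 5 each) on a log axis, grouped by complex. Eif5a is the highest at 1385 TPM in WT31, and Eif4e1b and Eif4ebp3 lie near or below 1 TPM.

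The start-site selection factors were divided. eIF1 and eIF1A bind the small subunit and guard the choice of the start codon. Of 5 genes of the eIF1 group, Eif1a and Eif1ax were lower, Eif1b was higher, and Eif1 and Eif1ad did not pass the test. The median log2 fold change of the group was −0.11.

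Eif1a (ENSMUSG00000057561.10), which encodes eIF1A, had the largest decrease of the family. It was measured at 79.8, 81.6, 81.8, 72.1 and 76.6 CPM in WT31 and at 50.4, 48.5, 51.6, 53.8 and 49.4 CPM in WT31_P5IV. Every WT31_P5IV library lay below every WT31 library. The log2 fold change was −0.63 ± 0.04 (SE, adjusted p = 1.12e-08, edgeR), and the mean CPM fell by 35.3%. Its X-linked paralog Eif1ax had 140 ± 1.43 CPM in the parental line and 104 ± 2.92 CPM in the subline (SD, n = 5), without overlap (log2 fold change −0.43 ± 0.03, adjusted p = 2.08e-08, edgeR).

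Eif1 and Eif1b encode closely similar forms of eIF1. The 342 coding bases of Eif1 (GRCm38 chr11:100319885-100322096) and Eif1b (chr9:120492232-120495330) were identical at 81.3%. The first 90 bases are shown because the balance between these 2 genes differed between the groups, and their coding sequences are this alike. Capitals mark the 13 positions in which the genes differ, in the GENCODE M21 transcripts.
Eif1: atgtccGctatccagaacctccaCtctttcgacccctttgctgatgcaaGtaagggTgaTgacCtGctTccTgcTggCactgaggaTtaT
Eif1b: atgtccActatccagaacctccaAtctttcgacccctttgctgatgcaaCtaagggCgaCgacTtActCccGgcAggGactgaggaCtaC
Of the 31-base words of its transcripts, Eif1 shared 23.0% with other genes, 14.5% with Emd, and Eif1b shared 7.80%, of which nearly all with D830035M03Rik. Eif1 was measured at 342, 319, 311, 350 and 358 CPM in WT31 and at 326, 292, 306, 327 and 309 CPM in WT31_P5IV. The groups overlapped, and the change did not pass the test (log2 fold change −0.11 ± 0.05, adjusted p = 0.0528, edgeR). It passed as lower in 11 of 22 alternatives, with an adjusted p of 0.0309 with DESeq2, and with edgeR of 0.0239 with the replicate number as a block and of 0.0124 without WT31 library 3. Eif1b was measured at 32.2, 30.8, 30.8, 34.3 and 35.5 CPM in WT31 and at 36.9, 35.3, 36.1, 36.4 and 35.9 CPM in WT31_P5IV. Library 5 of WT31 reached into the range of WT31_P5IV, while the other 4 lay below it. The log2 fold change was 0.14 ± 0.05 (SE, adjusted p = 0.0126, edgeR). This call was lost without WT31 library 3 (adjusted p = 0.0508, edgeR) or libraries 2 and 3 (0.138) and with no filter beyond 1 count (0.225). It was also lost without scaling (0.161, limma), where the median of all genes moved from 0.01 to −0.06 and Eif1b to 0.08.

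The share of a pair held by 1 of its genes needs no scaling between libraries and was compared for 11 pairs by a two-sided exact permutation test, whose smallest possible p is 0.00794. Eif1b held 11.0% ± 0.276 of the summed TPM of Eif1 and Eif1b in WT31 and 12.8% ± 0.599 in WT31_P5IV (SD, n = 5), with no overlap of the groups (adjusted p = 0.0291, exact permutation). Eif1ax held 62.1% ± 3.03 and 66.6% ± 1.95 of its pair with Eif1a, which did not pass (adjusted p = 0.0655, exact permutation). With shares of CPM in place of TPM this pair passed (adjusted p = 0.0175, exact permutation).

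The eIF2 trimer was lower in all of its subunits. eIF2 carries the initiator tRNA, and its alpha subunit, encoded by Eif2s1, is the target of the stress kinases. Eif2s1 (chr12:78861819-78887010) had 168 ± 5.14 CPM in the parental line and 122 ± 6.23 CPM in the subline (SD, n = 5; log2 fold change −0.46 ± 0.04, adjusted p = 1.29e-07, edgeR). Eif2s2 (chr2:154871410-154892935), for the beta subunit, had 252 ± 5.29 and 185 ± 10.5 CPM (log2 fold change −0.45 ± 0.04, adjusted p = 1.67e-07, edgeR). The gamma subunit gene Eif2s3x (ENSMUSG00000035150.15, chrX:94188707-94212862) was measured at 291, 303, 300, 286 and 278 CPM in WT31 and at 197, 191, 203, 211 and 199 CPM in WT31_P5IV. The groups lay far apart, and the log2 fold change was −0.54 ± 0.04 (SE, adjusted p = 1.06e-08, edgeR). The ratio of the mean CPM, subline to parental line, was 0.727, 0.733 and 0.687 for these 3 genes, which lie on chromosomes 12, 2 and X.

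The Y-linked copy of the gamma subunit gene, Eif2s3y, is no member and was set beside Eif2s3x as its paralog. It was measured at 45.3, 50.7, 47.9, 45.1 and 45.4 CPM in WT31 and at 18.8, 16.4, 18.4, 18.1 and 20.9 CPM in WT31_P5IV. It was detected in every library and lower in each WT31_P5IV library (log2 fold change −1.34 ± 0.06, adjusted p = 8.79e-11, edgeR). Eif2s3y held 25.2% to 26.8% of the summed TPM of both copies in the 5 WT31 libraries and 15.2% to 18.8% in the 5 of WT31_P5IV (adjusted p = 0.0291, exact permutation). No other Y-linked gene was set beside it, and whether its decrease is shared by the Y chromosome was not tested. The 1419 coding bases of the copies were identical at 86.3%, and Eif2s3x shared 35.6% of its 31-base words with other genes, 34.9% with Gm2223, which had 0 counts.

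**Figure D3:**
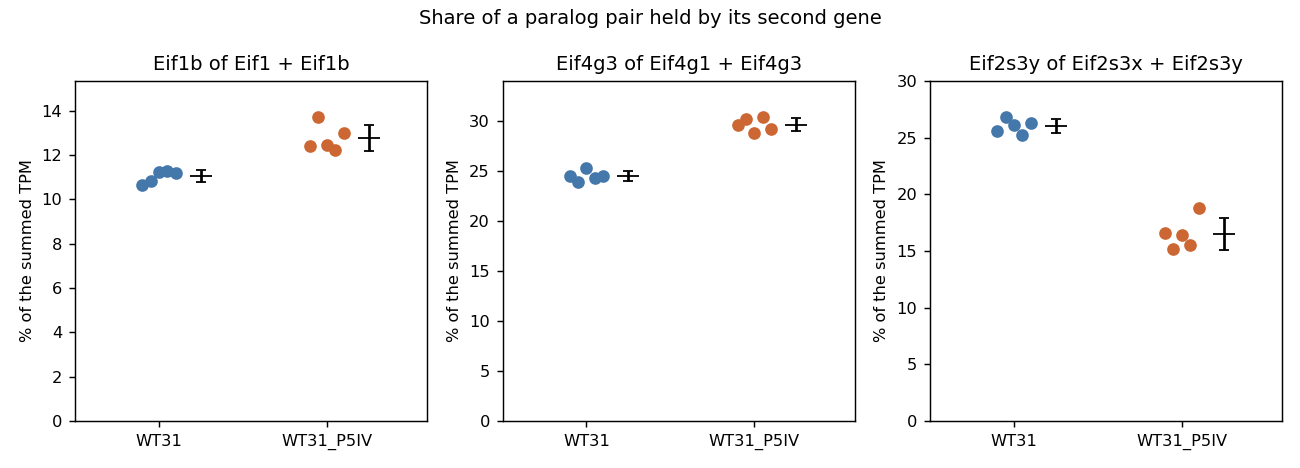
Share of the summed TPM of a pair held by its second gene in each of the 5 libraries per group, with mean and SD at the side. The groups do not overlap in the 3 pairs shown: the mean of Eif1b goes from 11.0% to 12.8% and that of Eif4g3 from 24.5% to 29.6%, and Eif2s3y lies at 25.2% to 26.8% in WT31 and at 15.2% to 18.8% in WT31_P5IV. Eif4g1, the partner of Eif4g3, lies on chromosome 16 and Eif2s3y on the Y, and the part of these chromosomes was not tested.

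eIF2B, the exchange factor that recycles eIF2, consists of a regulatory part (alpha, beta and delta subunits) and a catalytic part (gamma and epsilon). Of its 5 genes, 3 were lower and none was higher. The alpha subunit gene Eif2b1 had a log2 fold change of −0.36, the catalytic epsilon subunit gene Eif2b5 of −0.33 and the delta subunit gene Eif2b4 of −0.19. Eif2b2 (0.06 ± 0.07) and Eif2b3 (−0.08 ± 0.05), for the beta and gamma subunits, did not pass the test. Eif2b3 passed as lower in 3 alternatives, at −0.15 without scaling (adjusted p = 0.0141, limma) and on both TPM scales. In these the median of all genes was lower too. The levels of the eIF2B genes lay in a narrow band, from 28.3 ± 0.834 TPM for Eif2b3 to 60.8 ± 1.15 TPM for Eif2b2 in WT31.

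Eif2a and Eif2d encode proteins that can deliver tRNA to the ribosome without eIF2. Eif2a was lower, with 73.8 ± 0.839 CPM in the parental line and 55.5 ± 2.17 CPM in the subline (SD, n = 5; log2 fold change −0.41 ± 0.04, adjusted p = 9.99e-08, edgeR). Eif2d (ENSMUSG00000026427.16, chr1:131153181-131187658) was measured at 40.2, 38.9, 40.7, 41.5 and 41.8 CPM in WT31 and at 44.2, 41.9, 44.3, 44.1 and 44.1 CPM in WT31_P5IV. The groups lay side by side with almost no gap. The log2 fold change was 0.11 ± 0.04 (SE, adjusted p = 0.0164, edgeR). The call was lost without WT31 library 1 (adjusted p = 0.0609, edgeR), library 2 (0.0688) or libraries 2 and 3 (0.106) and with no filter beyond 1 count (0.419). It was also lost without scaling (0.418, limma), where Eif2d moved to 0.04 with the shift of all genes.

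eIF3, the largest initiation factor, holds the small subunit and bridges it to eIF4G. All 14 genes were tested, of which 10 were lower, none was higher and 4 did not pass the test, with a median log2 fold change of −0.19. Of the 5 genes for the subunits a, b, c, g and i, which form the conserved core also found in yeast, 4 were lower: Eif3a at −0.30, Eif3g at −0.24, Eif3c at −0.23 and Eif3b at −0.19. Over 22 alternatives Eif3a ranged from −0.46 to −0.18 and kept its call. Eif3i (0.08 ± 0.06) did not pass the test. Among the other 7 subunits, Eif3e at −0.44, Eif3m at −0.20, Eif3f at −0.15 and Eif3l at −0.10 were lower, and Eif3d (−0.05 ± 0.04), Eif3h (−0.06 ± 0.04) and Eif3k did not pass. The calls of Eif3f (adjusted p = 0.0355) and Eif3l (adjusted p = 0.0370) were lost in 8 and 6 of the alternatives tried. Eif3d and Eif3h passed as lower in 4 and 5, among them both TPM scales and the fit without scaling, where the median of all genes was lower too. Without WT31 library 2 alone, Eif3h was at −0.10 (adjusted p = 0.0432, edgeR).

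The loosely bound subunit eIF3j, which takes part in recycling and mRNA entry, is encoded by a pair of near-identical genes, and both were lower. Eif3j1 (ENSMUSG00000027236.8, chr2:122028546-122056598) was measured at 99.2, 102, 103, 101 and 94.3 CPM in WT31 and at 66.1, 68.5, 69.8, 71.0 and 69.3 CPM in WT31_P5IV. No libraries overlapped, and the log2 fold change was −0.54 ± 0.04 (SE, adjusted p = 9.06e-09, edgeR). Eif3j2 had a log2 fold change of −0.45 ± 0.04 (adjusted p = 4.71e-07, edgeR). Since 94.0% of the 31-base words of Eif3j2 occurred in Eif3j1, the division of reads between them is uncertain. Their counts summed gave −0.49 (adjusted p = 1.72e-08, edgeR), in an analysis added after the values were seen.

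At the upper end of eIF3 was Eif3k (ENSMUSG00000053565.10, chr7:28971372-28981864), a peripheral subunit. It was measured at 105, 94.6, 104, 115 and 115 CPM in WT31 and at 112, 111, 115, 115 and 113 CPM in WT31_P5IV. The groups overlapped and the value of 0.09 ± 0.05 did not pass the test (adjusted p = 0.124, edgeR). Without WT31 library 2, Eif3k was at 0.04. In TPM, the 12 subunits other than eIF3j lay between 139 ± 21.5 for Eif3a and 379 ± 14.1 for Eif3h in WT31, while Eif3j1 and Eif3j2 were at 28.8 ± 1.66 and 63.5 ± 2.69.

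The eIF4G genes were all lower, but not to the same extent. eIF4G, the scaffold of eIF4F, links the cap-binding protein to eIF4A, eIF3 and the poly(A)-binding protein. Eif4g1 (ENSMUSG00000045983.16, chr16:20668313-20692884), for the main form, was measured at 861, 927, 934, 858 and 840 CPM in WT31 and at 616, 655, 636, 588 and 620 CPM in WT31_P5IV. The groups were well apart (log2 fold change −0.51 ± 0.04, adjusted p = 6.93e-08, edgeR).

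Eif4g2 (ENSMUSG00000005610.17, chr7:111067750-111083030) encodes DAP5, a relative that lacks the eIF4E-binding part and serves cap-independent or alternative initiation. It was measured at 1722, 1878, 1851, 1678 and 1619 CPM in WT31 and at 1168, 1145, 1224, 1195 and 1180 CPM in WT31_P5IV. All WT31_P5IV libraries were below all of WT31, with a log2 fold change of −0.57 ± 0.04 (SE, adjusted p = 3.71e-08, edgeR). With an offset for the mean length of the transcripts assigned, Eif4g2 was at −0.39 and Eif4g1 at −0.49. Eif4g2 had 1 of the length differences described below. Eif4g3 (ENSMUSG00000028760.16, chr4:137993022-138208508), for the second canonical scaffold, was measured at 305, 326, 334, 299 and 288 CPM in WT31 and at 290, 301, 288, 281 and 281 CPM in WT31_P5IV. These groups overlapped, and the log2 fold change was −0.11 ± 0.04 (SE, adjusted p = 0.0374, edgeR), a call lost in 8 alternatives, among them the fit without WT31 libraries 2 and 3 (adjusted p = 0.147). Accordingly, Eif4g3 held 24.5% ± 0.522 of the summed TPM of Eif4g1 and Eif4g3 in WT31 and 29.6% ± 0.651 in WT31_P5IV (SD, n = 5), with no overlap (adjusted p = 0.0291, exact permutation). The share of Eif4g2 beside Eif4g1, 69.8% ± 0.521 and 71.1% ± 1.34, did not pass (adjusted p = 0.131, exact permutation). Eif4g1 lies on chromosome 16, where the other genes tested had a median log2 fold change of −0.42. The part of that chromosome in these shares was not tested.

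Of the 4 genes for cap-binding proteins, 3 were tested and all 3 were lower. Eif4e, for the cap-binding subunit of eIF4F, had 190 ± 5.93 CPM in the parental line and 137 ± 3.83 CPM in the subline (SD, n = 5; log2 fold change −0.48 ± 0.03, adjusted p = 1.81e-08, edgeR). Eif4e2, for the repressive homolog 4EHP, had a log2 fold change of −0.39 and Eif4e3 of −0.32, and none of the 3 overlapped between groups. Their shares within the pairs Eif4e and Eif4e2 and Eif4e and Eif4e3 did not pass the test (adjusted p = 0.291 and 0.122, exact permutation). Eif4e1b, known from oocytes, was at 0 to 5 counts per library and was not tested. Eif4enif1, for the eIF4E transporter, was lower at −0.17 ± 0.03.

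Of the inhibitors of eIF4E, none passed the count test. The eIF4E-binding proteins compete with eIF4G for eIF4E and release it when mTOR phosphorylates them. The log2 fold change of Eif4ebp1 was 0.12 ± 0.08 and did not pass the test (adjusted p = 0.206, edgeR), at 25.6 ± 3.84 CPM in the parental line and 27.9 ± 1.49 CPM in the subline (SD, n = 5). It was 0.06 without WT31 library 2, 0.07 without WT31 library 3, −0.02 without both and −0.06 on log2(TPM + 0.1), and it passed at 0.26 without WT31 libraries 4 and 5 (adjusted p = 0.00182, edgeR). Eif4ebp2 had 256 ± 11.0 and 254 ± 9.62 CPM (−0.01 ± 0.04, adjusted p = 0.884, edgeR). On log2(TPM + 0.1), where the median of all genes was −0.14, it passed as lower at −0.18 (adjusted p = 0.00647, limma). Eif4ebp3 was at 2 to 21 counts per library, was not tested, and shared 66.4% of its 31-base words with AC115631.1.

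Of the helicase genes, Eif4a1 and Eif4a2 were lower, and Eif4a3 was higher. eIF4A unwinds structure in the leader of the mRNA. Eif4a1 (chr11:69666936-69672423) had 957 ± 42.9 CPM in the parental line and 766 ± 35.2 CPM in the subline (SD, n = 5; log2 fold change −0.32 ± 0.04, adjusted p = 8.31e-06, edgeR). The processed pseudogene Eif4a-ps4 (chr1:60703932-60705149), a non-member, was lower as well, with 307 ± 21.9 and 199 ± 17.5 CPM (log2 fold change −0.63 ± 0.06, adjusted p = 4.25e-07, edgeR).

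The 2 sequences can hardly be told apart. Of 1218 aligned bases of the coding sequence of Eif4a1 and the annotated transcript of Eif4a-ps4, 1217 were identical. The stretch with the single difference, coding bases 489 to 578 counted from the A of the start codon, is shown because the division of counts between gene and pseudogene within the coding region rests on it. The difference G534A is in capitals.
Eif4a1: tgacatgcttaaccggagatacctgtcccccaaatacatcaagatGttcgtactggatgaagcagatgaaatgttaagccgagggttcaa
Eif4a-ps4: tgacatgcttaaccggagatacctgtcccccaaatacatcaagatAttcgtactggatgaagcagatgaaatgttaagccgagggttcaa
The pseudogene was given 24.3% ± 2.08 of the summed estimated counts of the pair in WT31 and 20.6% ± 2.03 in WT31_P5IV (SD, n = 5). With both counts summed before the fit, the log2 fold change of Eif4a1 was −0.39 (adjusted p = 8.45e-08, edgeR).

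Eif4a2, for a second form of the helicase, had a log2 fold change of −0.20 ± 0.04, and its share beside Eif4a1 was 17.4% ± 1.21 in WT31 and 17.7% ± 1.15 in WT31_P5IV (SD, n = 5; adjusted p = 0.802, exact permutation). Eif4a3 (ENSMUSG00000025580.15, chr11:119288363-119300089) encodes a helicase of the exon junction complex, which marks spliced mRNA and is not part of eIF4F. It was measured at 139, 126, 129, 137 and 138 CPM in WT31 and at 154, 150, 150, 150 and 145 CPM in WT31_P5IV. All WT31_P5IV libraries were above all of WT31 (log2 fold change 0.16 ± 0.04, adjusted p = 0.00125, edgeR). The call was lost with no filter beyond 1 count (adjusted p = 0.0571, edgeR). The helicase cofactor genes Eif4b (−0.38 ± 0.03) and Eif4h (−0.12 ± 0.03) were both lower.

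All 4 genes of the eIF5 group were lower. Eif5, for the protein that triggers GTP hydrolysis on eIF2, had a log2 fold change of −0.32 ± 0.04, and Eif5b, for the subunit joining factor, of −0.30 ± 0.04. eIF5A carries the modified amino acid hypusine and acts mainly in elongation and termination. Eif5a (ENSMUSG00000078812.10, chr11:69916714-69921958) was measured at 1055, 919, 964, 1109 and 1141 CPM in WT31 and at 882, 868, 856, 954 and 874 CPM in WT31_P5IV. Library 4 of WT31_P5IV lay above the lowest WT31 library, the other 4 below all of them (log2 fold change −0.23 ± 0.06, adjusted p = 0.0026, edgeR). Eif5a2 (ENSMUSG00000050192.8, chr3:28781276-28798846), the less abundant form, was measured at 28.3, 30.1, 27.2, 27.4 and 23.3 CPM in WT31 and at 21.4, 18.4, 20.4, 22.5 and 19.3 CPM in WT31_P5IV. The groups were apart by a small gap (log2 fold change −0.42 ± 0.07, adjusted p = 8.93e-05, edgeR). Eif5a2 held 0.611% ± 0.104 and 0.529% ± 0.0301 of the TPM of its pair with Eif5a, a difference that did not pass (adjusted p = 0.200, exact permutation).

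Eif6 was the member with the highest log2 fold change. eIF6 binds the large ribosomal subunit, takes part in its biogenesis and keeps it from joining the small subunit early. Eif6 (ENSMUSG00000027613.15, chr2:155819832-155826925) was measured at 66.6, 58.7, 64.8, 69.0 and 70.4 CPM in WT31 and at 80.9, 75.5, 81.8, 81.6 and 81.8 CPM in WT31_P5IV. All WT31_P5IV libraries lay above WT31, by 21.9% in the mean, with a log2 fold change of 0.29 ± 0.05 (SE, adjusted p = 9.47e-05, edgeR).

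**Figure D4:**
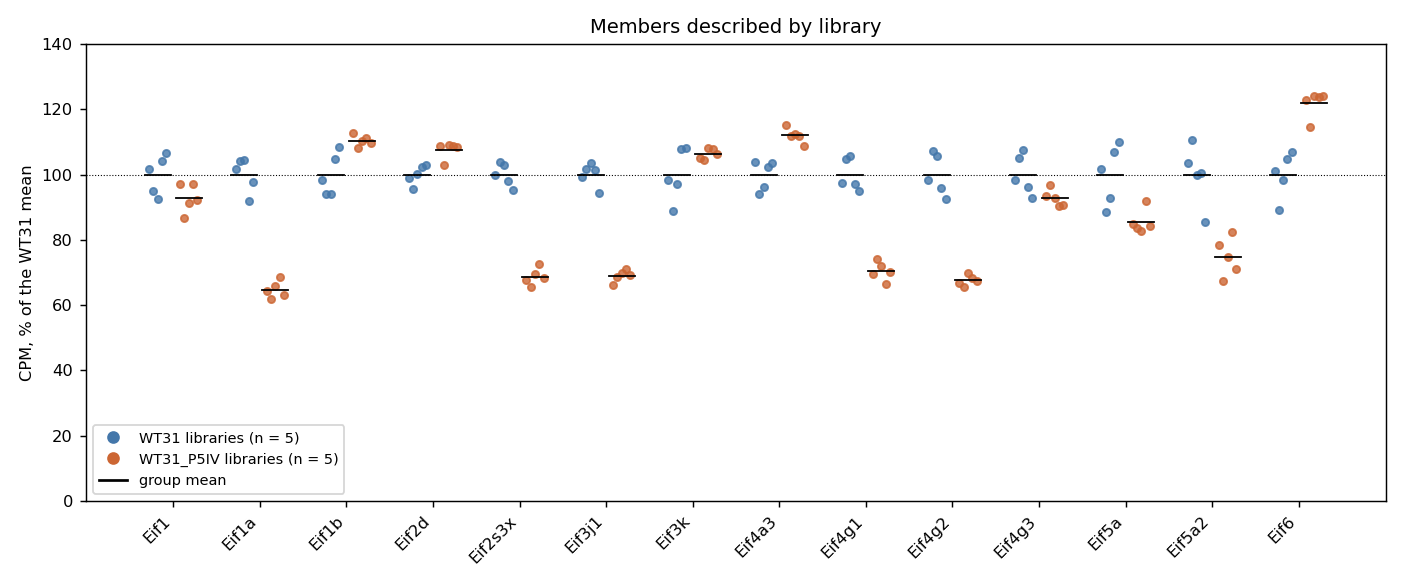
CPM of the 14 members described library by library, as a percentage of the WT31 mean, with 5 libraries and the mean per group. Eif1a, Eif2s3x, Eif3j1, Eif4g1 and Eif4g2 sit well below the WT31 libraries, Eif6 sits above them, and Eif1, Eif1b, Eif3k, Eif4g3 and Eif5a overlap.

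Library values were given for members with an absolute log2 fold change of at least 0.5, for the extremes of each factor number and for members of pairs whose share differed. Just inside the first limit was Eif4g1 at −0.51, and just outside it was Eif4e at −0.48. Within WT31, libraries 2 and 3 stood apart from libraries 4 and 5 in the family. In 13 members libraries 2 and 3 had the highest 2 values of the group, as in Eif3a with 523 and 511 CPM against 392 to 436 CPM in the others, and in 19 members they had the lowest 2, as in Eif5a and Eif6. The first set had long transcripts, with a median of 2.65 CPM per TPM, the second short ones, with 0.794 CPM per TPM. Over all genes tested, 26.9% had the first pattern and 27.2% the second. Of the first set 12 of 13 members were lower in WT31_P5IV, and of the second 8 of 19, where 44.5% and 27.4% of all genes with these patterns were lower. The part of transcript length in this was not tested. Without libraries 2 and 3 of WT31, 36 members were lower and 2, Eif4a3 and Eif6, were higher, and without libraries 4 and 5, 32 were lower and 7 were higher, the latter with Eif3i, Eif3k and Eif4ebp1 added. Both fits were added after the values were seen.

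The 48 tested members lie on 17 chromosomes. Of them, 38 were below the median log2 fold change of the other genes on their own chromosome, with a median difference of −0.22. Eif1a and Eif3j2 (chr18:46597701-46616456 and chr18:43475418-43477796) differed from theirs by −0.54 and −0.36. On chromosome 16, the other 412 genes tested had a median of −0.42, and 68.0% of them were lower. Its 3 members were Eif4g1 at −0.51, Eif2b5 at −0.33 and Eif4a2 at −0.20, with differences from that value of −0.08, 0.10 and 0.23. All 3 were lower on a chromosome that was lower, so their decrease cannot be told apart from that of the chromosome. Without them, the other 45 members had a median of −0.23, and 31 were lower. On chromosome 6, where the other 676 genes had a median of 0.28 and 59.3% were higher, the only member Eif4e3 was at −0.32. In the count test Eif4g2, on chromosome 7 with a median of 0.08, lay furthest below its chromosome, with a difference of −0.64. With an offset for transcript length Eif4g2 was at −0.39, and the chromosomes were not compared in that setting.

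**Figure D5:**
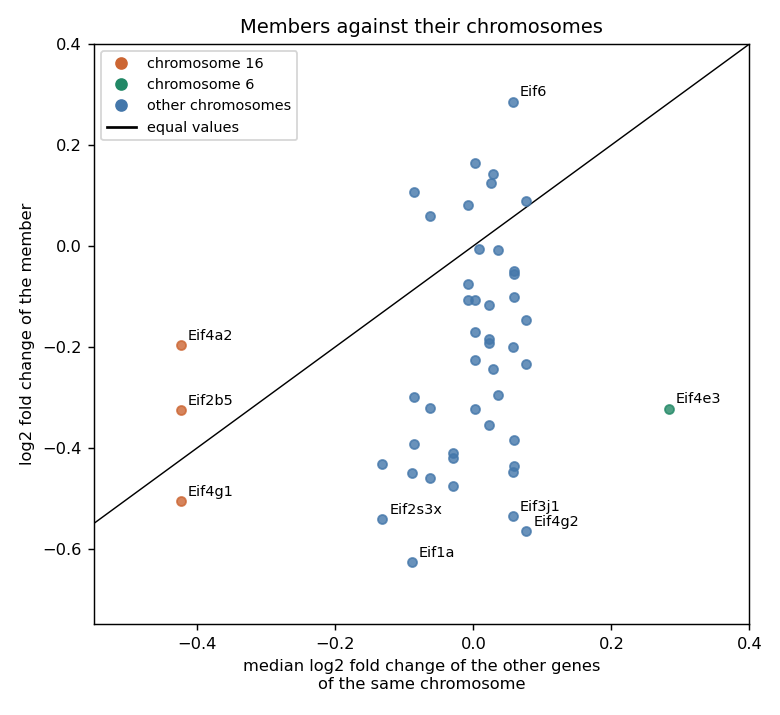
Log2 fold change of each tested member against the median of the other genes on its chromosome, with a line of equal values. Of the 3 members on chromosome 16, Eif4g1 and Eif2b5 lie near the median of −0.42 of their chromosome and Eif4a2 lies 0.23 above it. Eif4e3 lies at −0.32 where the median of chromosome 6 is 0.28.

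Counts per gene do not show a change in the mix of transcripts, but the ratio of counts to TPM gives the mean length of the transcripts that kallisto assigned. For 9 of 48 members this length differed between groups (adjusted p = 0.0423 for each, exact permutation), in each of them without overlap of the libraries, which 16.6% of all genes with a length in every library also showed. Of the 9, 2 differed by more than 0.1 on the log2 scale, as 3.18% of all these genes did without overlap, and nothing particular to the family is read from these shares. In WT31_P5IV the length of Eif4g2 fell by 11.2%, with values relative to the WT31 mean of −0.04 to 0.02 in WT31 and −0.23 to −0.11 in WT31_P5IV on the log2 scale. That of Eif5b was 10.3% more, with −0.08 to 0.05 and 0.10 to 0.18. Eif5b shared 15.3% of its 31-base words with Rev1, and which transcripts were assigned was not analysed here.

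Promoter windows from RefSeq (GRCm38.p6), from 250 bases before to 50 bases after the start of transcription, were found for 38 of 50 members. They were searched for CACGTG, the palindromic E-box bound by MYC and related factors, which reads the same on both strands. It was present for 10 of 38 members (26.3%), while 7.15% of all windows and 8.09% of all genes held it. These shares cover all 27025 genes with a window, expressed or not. Expressed genes alone were not counted, so nothing particular to the family is read from them. Of the 10 members with the motif 8 were lower, with a median log2 fold change of −0.26, and of the 28 without it 21 were lower, with a median of −0.22. Of all genes tested 33.9% were lower, and this share was not split by the motif. Sites in front of annotated exons are shown with 22 bases on each side for 3 members that were lower. A site of Eif3k, which did not pass the test, is shown as well. Eif1b, which was higher, also held the motif, at a site that overlapped an annotated exon and is not shown. The motif is in capitals, in the direction of the gene.
Eif4g1, chr16:20672651-20672700, plus strand: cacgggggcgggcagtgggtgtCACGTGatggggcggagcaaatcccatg
Eif4a1, chr11:69672585-69672634, minus strand: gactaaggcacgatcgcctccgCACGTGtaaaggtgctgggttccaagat
Eif5a2, chr3:28781138-28781187, plus strand: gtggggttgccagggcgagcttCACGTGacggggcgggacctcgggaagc
Eif3k, chr7:28981905-28981954, minus strand: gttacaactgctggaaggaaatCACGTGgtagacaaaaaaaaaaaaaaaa
The first base of the motif lay 54, 189, 117 and 44 bases before the start of transcription. Myc itself had 117 ± 6.25 CPM in the parental line and 89.8 ± 5.66 CPM in the subline (SD, n = 5; log2 fold change −0.38 ± 0.05, adjusted p = 8.70e-06, edgeR). Occupancy of these sites was not measured, and the part of Myc in the members' values was not tested.

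Other genes of the pathway were counted in lists. Of 22 partners of the initiation factors, 15 were lower and 2 were higher, with a median log2 fold change of −0.23, where 33.9% of all genes tested were lower and 34.6% higher. The lowest was Abce1, the ribosome recycling ATPase, at −0.56 ± 0.04, followed by Bzw1, an eIF5 mimic, at −0.50 ± 0.04. Pabpc1, for the poly(A)-binding protein that eIF4G contacts, was at −0.32 ± 0.04. Mcts1, whose product partners with DENR in a complex related to eIF2D, was higher at 0.23 ± 0.07, and Denr was lower at −0.32 ± 0.04. Of the enzymes that make hypusine on eIF5A, Dohh was higher at 0.16 ± 0.07, and Dhps at 0.09 ± 0.06 did not pass the test.

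Of 16 kinases and regulators tested, 4 were lower and 7 were higher, with a median of 0.04. These counts lay near the 33.9% lower and 34.6% higher of all genes and are no result about the list. Eif2ak3, for the eIF2 kinase PERK of the endoplasmic reticulum, had 35.5 ± 1.61 CPM in the parental line and 63.0 ± 4.49 CPM in the subline (SD, n = 5; log2 fold change 0.83 ± 0.05, adjusted p = 3.25e-09, edgeR). Eif2ak2, for the RNA-activated kinase PKR, was lower at −0.58 ± 0.08, and the heme-regulated Eif2ak1 (−0.07 ± 0.03) and the amino acid sensor Eif2ak4 (−0.04 ± 0.06) did not pass the test. Ppp1r15b, for a subunit of the phosphatase that reverses these kinases, was higher at 0.41 ± 0.04, and the inducible Ppp1r15a (−0.01 ± 0.08) did not pass. In the mTOR branch, Rptor and Mlst8, for subunits of the mTOR complex, Tsc1 and Tsc2, for its inhibitors, and the S6 kinase gene Rps6kb2 were higher by 0.24 to 0.40. The activator gene Rheb (−0.32) and Rps6kb1 (−0.55), for the main S6 kinase, were lower, and Mtor (0.10 ± 0.06) did not pass. Protein levels and phosphorylation were not analysed here.

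Of the elongation and termination factors, 9 of 11 tested were lower and none was higher, with a median of −0.20, beside 33.9% and 34.6% of all genes. Genes of like level were not compared here or for the partners, so both counts are a description only. Gspt1, for the release factor eRF3, had the lowest value of all these lists at −0.72 ± 0.03 (adjusted p = 9.84e-11, edgeR), and Etf1, for its partner eRF1, was at −0.36 ± 0.04. Eef1a1, for the factor that brings aminoacyl-tRNA, had 9381 ± 249 CPM in the parental line and 7398 ± 268 CPM in the subline (SD, n = 5). Of the mitochondrial initiation factors, Mtif2 was lower at −0.13 ± 0.05 and Mtif3 was higher at 0.35 ± 0.06.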

How the data were processed

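RNA-seq of 5 WT31 and 5 WT31_P5IV libraries was used. The authors trimmed reads with Trim Galore 0.6.4 and pseudoaligned them to GRCm38 with kallisto (version 0.4.6 in the submitters' processing notes), and deposited estimated counts and TPM values, each summed per gene. GENCODE M21 held 55144 of the 55385 identifiers, matched without version numbers. Here, estimated counts were rounded, filtered by filterByExpr, scaled by TMM and tested with glmQLFit and glmQLFTest in edgeR 4.0.16 (R 4.3.3), and p-values of the 13620 genes tested were adjusted by Benjamini-Hochberg. CPM were computed on the TMM-scaled totals. Library numbers follow the sample titles; for WT31 other labels number the libraries differently, so equal numbers in the 2 groups pair nothing for certain. Shares and lengths were compared by exact permutation tests, adjusted over 11 pairs or 48 members. Words of 31 bases were used to find shared sequence. Alternatives were limma 3.58.1, DESeq2 1.42.0, other scalings, filters and pseudocounts, a replicate block, a length offset, and each library left out. Library values are given for members with an absolute log2 fold change of at least 0.5 at an adjusted p under 0.05, the lowest and highest of each factor number, and pairs with a changed share. Named genes of other lists were chosen after their values were seen. Members, lists and tests were chosen with earlier results of these data known. Depth limits of 3 counts cover counting error only.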

Additional observations from a re-analysis of the deposited data

Results flagged for a closer look

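In 7 of 96 groups of 5 library values tested, 1 library lay far from the other 4 by Dixon's criterion, where chance gives about 1 in 20 groups. In WT31_P5IV these were Eif2b1 in library 3 (40.3 CPM), Eif2d in library 2 (41.9 CPM), Eif3c in library 5 (291 CPM), Eif4b in library 2 (298 CPM) and Eif6 in library 2 (75.5 CPM), each below the next value, and Eif5a in library 4 (954 CPM), above it. In WT31 it was Eif2b3 in library 2 (24.7 CPM), below the next value. WT31_P5IV library 2 was thus named for 3 genes, and without it 33 members were lower and 4 were higher.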

How the results depend on the processing

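Over 22 alternative settings for each member (23 for Eif3j1 and Eif4a1, with counts summed with those of their copies), 30 of the 34 lower members kept direction and call; the others were Eif3f, Eif3l, Eif4enif1 and Eif4g3. Lower members numbered 31 to 35 and higher members 3 to 4 with 1 library left out, with medians of −0.26 to −0.22, and lower members 31 to 42 over all settings. Higher members numbered 2 with limma voom without scaling, with no filter beyond 1 count and without WT31 libraries 2 and 3, 7 without WT31 libraries 4 and 5, and 1 on log2(TPM + 0.1) and log2(TPM + 1). The members' median was −0.30 without scaling, −0.20 with upper-quartile scaling, −0.27 with no filter beyond 1 count, and −0.42 on both TPM scales, where that of all genes was −0.14 and −0.12. Set against the median of all genes, it was −0.24 in the count test, without scaling and with upper-quartile scaling, −0.31 with no filter beyond 1 count, and −0.28 and −0.30 on the TPM scales; the cause of the latter 3 was not tested. On log2(TPM + 0.1) and log2(TPM + 1), Eif1b (−0.0139 and −0.0137), Eif2d (−0.0002 and −0.0001) and Eif4a3 (−0.0028 on both) turned sign with this shift of all genes, without passing the test, and Eif2b2 (0.06 to −0.1414 and −0.1392) and Eif3i (0.08 to −0.111 and −0.1105) turned and passed as lower. Shares of CPM in place of TPM made the differences for Eif1ax (3.04 percentage points) and Eif4e3 (1.40) pass. With 1 library left out, the difference was 0.958 to 1.54 for Eif4e3 beside Eif4e, passing without WT31 replicate 4, −0.117 to −0.0458 for Eif5a2, passing without WT31 replicate 5, and 1.04 to 1.92 for Eif4g2 beside Eif4g1, passing without WT31_P5IV replicate 2. Same-numbered libraries had correlated deviations of −0.02, 0.06, 0.30, 0.18 and −0.10, over 0.1 for 2 of 5 pairs, the WT31 library of each of these 2 correlating best with its own number. They were not taken as pairs, and a fit with the replicate block gave 35 lower and 4 higher members, with Eif1 added and no other member's call changed. Eif4e1b and Eif4ebp3 were too low to test.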
